A study of Mus musculus with 4 samples.

Results

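The comparison described here set immortalized mouse fibroblasts given the microRNA miR-141 against the same cells given a control miRNA, each on 1 Illumina bead array of the 4 in the series. A microRNA (miRNA) is a short RNA that guides Argonaute proteins to matching messenger RNAs and lowers their translation and stability. The other arrays held cells given miR-200c, which is encoded beside miR-141, and cells called transfectant only here, whose title names the transfectant and whose transfection field says none. All 4 cultures were lysed 48 h after transfection, and hydrogen peroxide at 400 µM was in every culture during the final 2 h, so the response to peroxide itself was not compared. The labels name no strain, sex, immortalizing agent or number of pooled cultures, and they do not give the arm of the miR-141 precursor that was transfected. The miRNA itself was not measured on these arrays. Each group had a single array, so the spread between replicates is unknown, no test was possible and no p-value is given for any difference.

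A gene entered when its probe had a detection p-value, the array's own measure of signal against background, under 0.01 with miR-141 or in control miRNA. Where a gene had several probes, its brightest one by mean signal across the series was taken. This gave 7403 genes of 17711 with a named probe. Of the 7403 genes, 6749 were detected on both arrays, 284 with miR-141 alone and 370 in control miRNA alone. Levels are normalized intensities on the log2 scale, on which a difference of 1 is 2-fold, and differences are miR-141 minus control miRNA. A gene was counted as higher or lower at 1.5-fold or more.

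miR-141 belongs to the miR-200 family, which is abundant in epithelium and scarce in connective tissue cells such as fibroblasts. The family is best known for silencing Zeb1 and Zeb2, transcription factors that hold epithelial genes off, so that cells with the family keep an epithelial set of junction and keratin genes and cells without it tend to the mesenchymal state of fibroblasts. A miRNA finds its targets mainly through its seed, bases 2 to 8 from its 5′ end. In fibroblasts under oxidative stress miR-141 has also been studied as a regulator of Mapk14, the p38 alpha stress kinase.

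The mature sequences are shown because the seed decides which messages the transfected miRNA can pair with. They are RefSeq sequences of build GRCm38.p6, written 5′ to 3′, and capitals mark the seed.
miR-141-3p: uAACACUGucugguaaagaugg
miR-141-5p: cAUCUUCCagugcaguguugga
miR-200a-3p: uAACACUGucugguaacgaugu
miR-200c-3p: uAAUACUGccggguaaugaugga
The miR-141 hairpin lies at chr6:124717914-124717985 on the minus strand, overlaps no other annotated gene, and is separated by 336 bases from the hairpin of miR-200c. The 3p arms of miR-141 and miR-200a had the same seed, AACACUG, and no other mature mouse miRNA in the table carried it. Against miR-141-3p, counting from its 5′ end, miR-200c-3p differed inside the seed by C4U and outside it by U9C, U11G and A17U. It is also longer at the 3′ end, with 23 bases against 22. The seed of miR-141-5p was shared with no other mature miRNA in the table.

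Median raw signals were 45.8 with miR-141 (43.1 with miR-200c), against 42.8 in control miRNA and 49.5 in transfectant only. Mean raw signals lay further apart, at 198 with miR-141 (190 with miR-200c), against 151 in control miRNA and 246 in transfectant only. The control miRNA array was thus the dimmest before normalization. The 4 arrays detected between 6989 and 7152 genes. The cell type was checked against marker lists. Of 12 fibroblast markers 6 were detected with miR-141 or in control miRNA (Col1a1, Pdgfrb, Dcn, Vim, S100a4 and P4hb), while Col1a2, Col3a1, Pdgfra, Thy1, Lum and Fap were below detection on both arrays. The summed background-corrected signal of the 12 was 17926 with miR-141, against 20984 in control miRNA. Of 12 epithelial markers only the keratin gene Krt8 was detected, with miR-141 and not in control miRNA, and Cdh1, Epcam and Esrp1 were below detection on both. Of 8 endothelial markers 2 were detected with miR-141 and 3 in control miRNA, and 0 of 5 immune cell markers were detected on either array. Detected markers of other tissues were 1 of 6 for muscle (Actc1), 1 of 6 for adipocytes (Adipoq) and 3 of 6 for neural cells (Tubb3, Map2 and Mbp). In such bulk samples fewer cells of a type and less RNA per cell cannot be told apart.

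Cells given miR-141 had lower messages for Zeb1, Zeb2 and Mapk14 and for some matrix genes, such as 4 of 12 detected collagen chains. Of 44 epithelial genes on the array 14 were detected, and 7 of these were higher, among them Lamb3, Krt8 and Cldn4. Only 2 of the 7 were detected on both arrays, and the others entered through the miR-141 array alone. In all 319 genes were higher with miR-141 than in control miRNA, or 4.31% of the 7403, and 357 were lower, or 4.82%. The differences were mostly small: 90.9% of genes lay within 1.5-fold, the median difference was 0.008, and 72 of the higher and 84 of the lower genes reached 2-fold. Of the higher genes 219 were detected on both arrays and 100 with miR-141 alone. Of the lower genes 285 were detected on both arrays and 72 in control miRNA alone. A value below detection is only a bound, and with such values raised to the lowest detected signal of their array 257 genes were higher (3.47%) and 314 lower (4.24%).

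The difference between the control arrays is given beside it. Their cells differed in transfection, so it is not a spread between replicates. Detection in transfectant only played no part in the choice of genes. Over the same 7403 genes, control miRNA was 1.5-fold higher than transfectant only in 237 (3.20%) and 1.5-fold below it in 247 (3.34%). The standard deviation of the log2 difference over these genes was 0.38 for miR-141 against control miRNA, 0.33 for control miRNA against transfectant only and 0.42 for miR-141 against transfectant only. For miR-200c against control miRNA, which shares the control array, 442 of these genes were higher (5.97%) and 514 lower (6.94%). Of the genes higher with miR-141 than in control miRNA, 170 were also 1.5-fold higher than in transfectant only, and of the lower genes 227 were also lower. The other 149 and 130 did not reach 1.5-fold against transfectant only, and among them 14 of the higher and 20 of the lower genes had the opposite sign there. Both comparisons use the same miR-141 array, so they are not independent. Just inside the threshold stood Rfx2 at 1.501-fold higher and Rims3 at 1.502-fold lower, and just outside it Cxcl1 at 1.499-fold higher and Ttc17 at 1.499-fold lower.

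Dim genes differed more often. Among the dimmest of 3 equal groups of genes by mean level 12.8% passed 1.5-fold in either direction, against 9.65% in the middle group and 4.98% in the brightest, and the standard deviations of the difference were 0.43, 0.39 and 0.29. Few genes had another detected probe to set beside the one used. For 48 higher genes that had one, all other detected probes had the same direction in 38, and at least 1 of them passed 1.5-fold in 16. For 68 such lower genes the numbers were 61 and 35.

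**Figure D1:**
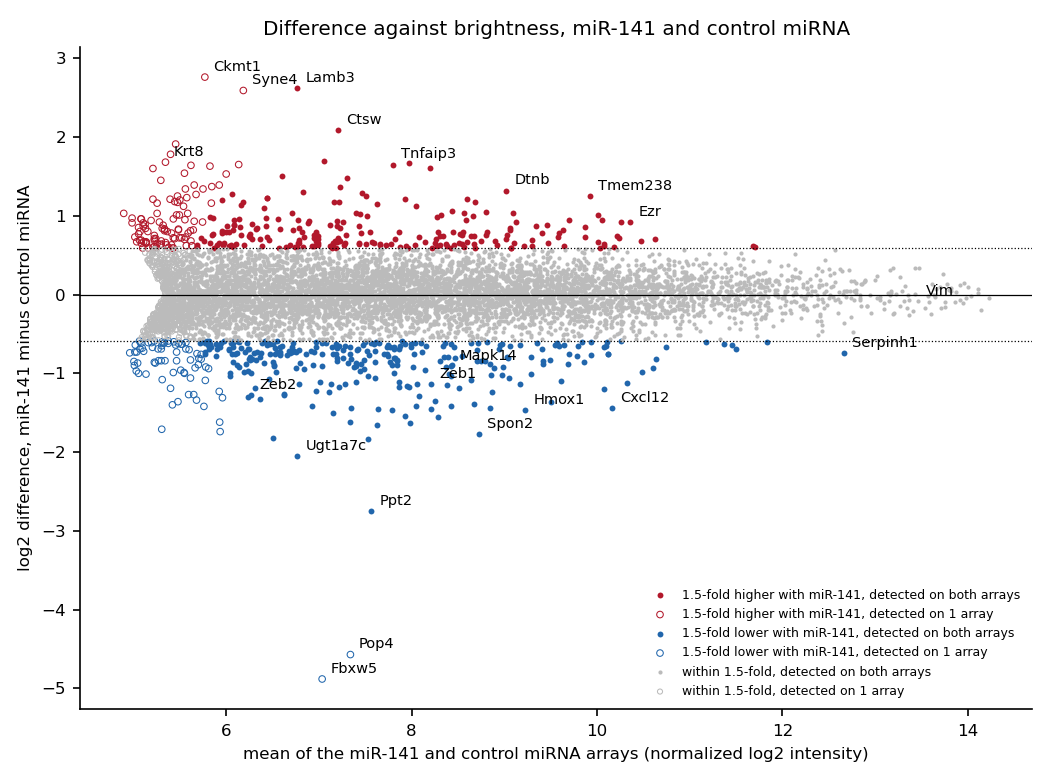
The horizontal axis is the mean normalized log2 intensity of the miR-141 and control miRNA arrays and the vertical axis the log2 difference, miR-141 minus control miRNA, for 7403 genes. Filled points were detected on both arrays and open points on 1, dotted lines mark 1.5-fold, and the cloud narrows towards bright genes, where Vim lies near 0 and Serpinh1 at -0.74.

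Zeb1 and Zeb2, the best established targets of the family, were both lower. Zeb1 was at 7.64 with miR-141 (6.50 with miR-200c), against 8.78 in control miRNA and 9.05 in transfectant only, a difference of -1.14 or 2.20-fold for miR-141 against control miRNA. Zeb2 was at 5.63 with miR-141 (5.51 with miR-200c), against 6.91 in control miRNA and 6.95 in transfectant only, a difference of -1.28. In both genes the miRNA arrays lay below both controls, and the controls lay close together. Mapk14, the p38 alpha kinase gene, was at 7.97 with miR-141 (8.96 with miR-200c), against 8.88 in control miRNA and 9.11 in transfectant only. For Mapk14 the miR-141 array stood apart from the other 3, at 1.88-fold below control miRNA.

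A list of 45 published targets of the shared seed of miR-141 and miR-200a was written from memory of the literature, without a database. It was chosen with earlier results of these data known, so its counts are no independent check. Of the 45 listed genes 28 were detected. Of these 10 were lower and 1 was higher, with a median difference of -0.27, against 4.82% lower and a median of 0.008 among all genes. The 3 genes above are among the 10. The chemokine gene Cxcl12, whose product guides CXCR4-bearing cells, was the lowest of the list at -1.44, with levels of 9.44 with miR-141, against 10.88 in control miRNA and 11.02 in transfectant only, and its other detected probe was lower by less than 1.5-fold. Tgfb2, a ligand of the TGF-beta pathway that drives matrix production, was at -0.79, and its other detected probe was also past 1.5-fold lower. The histone demethylase gene Kdm5b was at -0.74, the cell cycle phosphatase gene Cdc25a at -0.67, the circadian transcription factor gene Clock at -0.64, the chromatin protein gene Dek at -0.63 and the Hippo pathway effector gene Yap1 at -0.60. Against transfectant only Cdc25a, Dek and Yap1 did not reach 1.5-fold. Cdc25a was at 6.80 with miR-141 against 7.04 there, and Dek at 6.87 against 7.11. Zfpm2, a cofactor of GATA factors, was the higher one at 0.68, with 7.57 with miR-141, against 6.89 in control miRNA and 7.49 in transfectant only.

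Other listed targets did not reach the threshold. Keap1, which marks the antioxidant factor NRF2 for degradation, had 9.36 with miR-141 and 9.36 in control miRNA. The beta-catenin gene Ctnnb1 was at -0.27 by the probe used, with 9.54 with miR-141, against 9.81 in control miRNA and 10.35 in transfectant only, and its other detected probe was past 1.5-fold lower. For the kinase gene Map2k4 the difference was -0.28, and with transfectant only as the control it was -0.68. The deubiquitinase gene Bap1 was at -0.27, E2f3 at -0.06 and Elmo2 at 0.06. Among 20 detected genes listed for the other seed of the family, which miR-200c carries, only Zeb1, Zeb2 and Mapk14, which are on both lists, were lower with miR-141, and 0 were higher. The median of that list was -0.28 with miR-141, and it was -0.88 for miR-200c against the same control array.

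**Figure D2:**
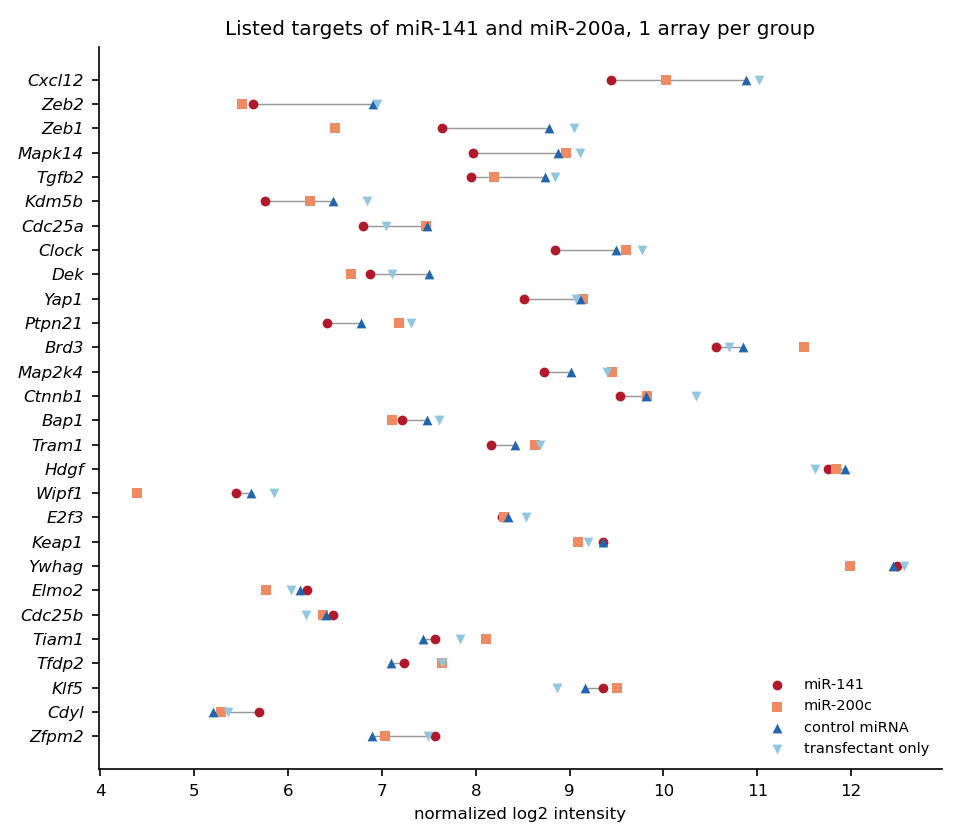
Normalized log2 intensity (horizontal) of the 28 detected genes listed as targets of miR-141 and miR-200a, ordered by their difference, with 1 point per array and a grey line joining the miR-141 and control miRNA arrays. Cxcl12, Zeb2 and Zeb1 have the longest lines towards lower values, and for Mapk14 and Clock the miR-141 point lies below the other 3.

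Transcription factors of the mesenchymal state lay low as a group, beside 4.82% of all genes lower. Of 8 detected factors 4 were lower, 0 were higher and all 8 differences were negative, from -1.28 to -0.06, with a median of -0.57. Besides Zeb1 and Zeb2 the lower ones were Twist2, a basic helix-loop-helix repressor of mesenchyme, at -0.61, and Osr1, a zinc finger factor of connective tissue, at -0.98. Osr1 was at 6.05 with miR-141, against 7.03 in control miRNA and 6.20 in transfectant only, so most of its difference is between the control arrays. Tcf4 at -0.54 and Prrx1 at -0.26 did not reach 1.5-fold, and Twist1 at -0.06 and Tcf3 at -0.07 were close to 0. Of the markers of the mesenchymal state, the intermediate filament gene Vim was at 13.42 with miR-141, against 13.50 in control miRNA, and the fibronectin gene Fn1 at 9.29 with miR-141, against 9.35 in control miRNA.

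Most epithelial genes were below detection, and some of those detected were higher. Of 44 epithelial junction, keratin and membrane genes on the array only 14 were detected with miR-141 or in control miRNA. Of these 7 were higher and 0 lower, against 4.31% and 4.82% of all genes. Of the 7 genes, Krt7, Krt8, Cldn4, Spint1 and Map7 were below detection in control miRNA and so entered only through the miR-141 array. Neither the count of 7 nor the median of 0.47 over the 14 is therefore a measure of the whole list. Lamb3, a chain of the epithelial basement membrane protein laminin-332, had the largest upward difference of the genes detected on both arrays. It was at 8.07 with miR-141 (8.52 with miR-200c), against 5.46 in control miRNA, and was below detection in transfectant only. With miR-141 it was 6.14-fold higher than in control miRNA. Llgl2, which helps to set the basolateral side of epithelial cells, was at 7.35 with miR-141 (8.58 with miR-200c), against 5.85 in control miRNA and 5.65 in transfectant only.

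Neither control array detected those 5 genes, and all were dimmer with miR-141 than with miR-200c. Krt8, a keratin of simple epithelia, was at 6.18 with miR-141 (7.83 with miR-200c), against 4.51 in control miRNA, and was at least 1.81-fold higher with miR-141. The related keratin gene Krt7 was at 6.10 with miR-141 (7.81 with miR-200c), against 4.90 in control miRNA, at least 1.70-fold higher. The tight junction gene Cldn4 was at 6.44 with miR-141 (7.50 with miR-200c), against 4.80 in control miRNA, at least 2.16-fold higher. Map7, which couples kinesin to microtubules, was at least 1.98-fold higher, and Spint1, an inhibitor of matriptase-type proteases, at least 1.31-fold. Of the members within 1.5-fold, Krt19 was at 0.31, the desmosome and adherens junction gene Jup at 0.35, Cldn1 at 0.14 and the integrin gene Itgb6 at -0.26. Cdh1, which encodes E-cadherin, was below detection on all 4 arrays.

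Among the 20 largest differences upward in genes detected on both arrays, several other genes of secretion and signalling followed Lamb3. The range was 2.30-fold to 6.14-fold, and in all 20 the miR-141 value was 1.5-fold above transfectant only as well. Ctsw, which encodes a papain-type cysteine protease, was at 8.25 with miR-141 (7.10 with miR-200c), against 6.16 in control miRNA and 6.02 in transfectant only. Stxbp2, which controls SNARE-driven vesicle fusion, was at 8.81 with miR-141, against 7.14 in control miRNA, and its syntaxin partner gene Stx3 was at 7.56 with miR-141, against 6.68 in control miRNA. Tnfaip3, whose product A20 restrains NF-kB signalling, was at 8.62 with miR-141, against 6.97 in control miRNA and 7.37 in transfectant only. The endothelin gene Edn1, a vasoconstrictor peptide precursor, was at 8.04 with miR-141, against 6.56 in control miRNA, and Slpi, a secreted inhibitor of leukocyte proteases, at 7.91 with miR-141, against 6.55 in control miRNA. Tmem130 and Tprn were 3.22-fold and 3.05-fold higher. Dtnb, a dystrobrevin of the dystrophin complex, was at 9.68 with miR-141, against 8.36 in control miRNA, and Tmem238 at 10.55 with miR-141, against 9.30 in control miRNA, and these were the brightest of the 20.

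The remaining genes of the 20 follow. Il13ra1, a receptor chain for interleukin 13, was 2.38-fold higher, Rgs16, which turns off G protein signals, 2.34-fold, the kinase gene Ripk4 2.32-fold, Ccdc92 2.31-fold, Surf6 2.33-fold and the chemokine gene Cxcl16 2.30-fold. Cd34, Tmem231 and Mok in this group were high with miR-141 and not with miR-200c. The progenitor surface marker gene Cd34 was at 7.47 with miR-141 (6.17 with miR-200c), against 6.18 in control miRNA. Tmem231, of the cilium transition zone, was at 8.10 with miR-141 (6.96 with miR-200c), against 6.82 in control miRNA, and the kinase gene Mok at 6.70 with miR-141 (5.32 with miR-200c), against 5.42 in control miRNA.

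Genes detected with miR-141 and below detection in control miRNA have only a lower bound for their fold. Syne4, which encodes nesprin-4 and ties the nucleus to kinesin in epithelial cells, was at 7.48 with miR-141 (8.27 with miR-200c), against 4.89 in control miRNA and 5.07 in transfectant only, at least 4.44-fold higher. Ckmt1, a creatine kinase of mitochondria, was at 7.15 with miR-141 (7.35 with miR-200c), against 4.39 in control miRNA and 4.67 in transfectant only, at least 3.53-fold higher. Below these were 1700088E04Rik at least 3.09-fold, Lrba, a vesicle protein gene, at least 2.70-fold, the elongation factor gene Ell3 at least 2.48-fold, the scaffold gene Cnksr1 at least 2.44-fold, Katnal2 at least 2.29-fold, Zfp14 and Rnf144b at least 2.12-fold each, Lmntd2 at least 2.11-fold and Pgap6 at least 2.03-fold. Of these genes 1700088E04Rik and Katnal2 were not high with miR-200c, with 5.72 for 1700088E04Rik and 5.46 for Katnal2, against 5.31 and 5.16 in control miRNA.

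**Figure D3:**
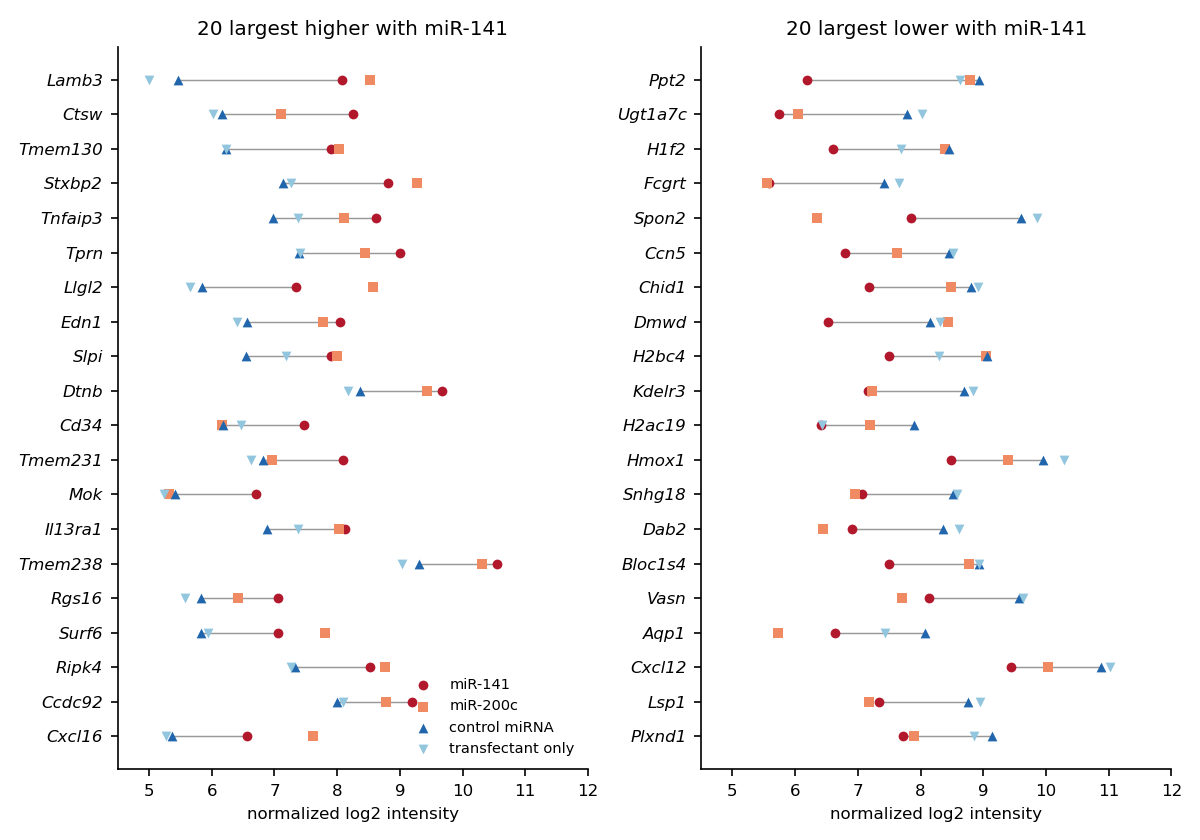
Normalized log2 intensity (horizontal) on each of the 4 arrays for the 20 genes with the largest upward (left panel) and downward (right panel) difference among those detected on both arrays, with a grey line from the miR-141 to the control miRNA point. Both controls lie together on 1 side of miR-141 in most rows, and exceptions such as H2ac19 show transfectant only beside miR-141.

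The largest drop among genes detected on both arrays was in Ppt2, a lysosomal thioesterase. Ppt2 was at 6.19 with miR-141 (8.79 with miR-200c), against 8.94 in control miRNA and 8.63 in transfectant only, which is 6.75-fold lower with miR-141 than in control miRNA. The other 3 arrays lay close together. Ugt1a7c, a glucuronosyltransferase that makes lipophilic compounds soluble, was at 5.74 with miR-141, against 7.79 in control miRNA, and both of its other detected probes were also past 1.5-fold lower. Genes of the Ugt1a locus share exons, so these probes may not tell its members apart. Fcgrt, which recycles IgG and albumin, was at 5.59 with miR-141 (5.55 with miR-200c), against 7.41 in control miRNA. Hmox1, the enzyme that breaks down heme and a leading gene of the oxidative stress response, was at 8.49 with miR-141 (9.39 with miR-200c), against 9.96 in control miRNA and 10.29 in transfectant only, 2.78-fold lower with miR-141 than in control miRNA.

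Several of the 20 largest drops were high with miR-200c, as Ppt2 was. Dmwd was at 6.53 with miR-141 (8.44 with miR-200c), against 8.15 in control miRNA and 8.31 in transfectant only. Chid1, a chitinase-domain protein gene, was at 7.17 with miR-141 (8.49 with miR-200c), against 8.80 in control miRNA and 8.92 in transfectant only, although its other detected probe was lower by less than 1.5-fold. Bloc1s4, of the complex that builds lysosome-related organelles, was at 7.49 with miR-141 (8.77 with miR-200c), against 8.93 in control miRNA and 8.94 in transfectant only. In these genes miR-141 was the array that stood apart. For the clustered histone genes the controls differed from each other: H1f2 was at 6.61 with miR-141 (8.39 with miR-200c), against 8.45 in control miRNA and 7.69 in transfectant only, and H2ac19 was at 6.41 with miR-141 (7.19 with miR-200c), against 7.90 in control miRNA and 6.43 in transfectant only. H2bc4 was at -1.55. Copies of these histone genes are nearly identical, which makes their values uncertain.

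Other genes among the 20 had varied roles. Dab2, an adaptor of clathrin-mediated uptake, was 2.73-fold lower, Kdelr3, which returns proteins to the endoplasmic reticulum, 2.91-fold, the semaphorin receptor gene Plxnd1 2.66-fold, the water channel gene Aqp1 2.72-fold, Lsp1, an actin-binding protein of leukocytes, 2.67-fold and the non-coding Snhg18 2.75-fold. The other detected probes of Kdelr3 and Plxnd1 had the same direction.

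Of genes detected in control miRNA and not with miR-141, the largest bounds belonged to Pop4 and Fbxw5, and for both of them the controls lay far apart. Pop4, of RNase P, was at 5.05 with miR-141 (9.23 with miR-200c), against 9.63 in control miRNA and 5.06 in transfectant only. Fbxw5, a ubiquitin ligase subunit gene, was at 4.60 with miR-141 (4.85 with miR-200c), against 9.47 in control miRNA and 4.49 in transfectant only. In both genes transfectant only lay beside miR-141. Aldh1a3, which makes retinoic acid, was at least 2.73-fold lower than in control miRNA, the unconventional myosin gene Myo7a at least 2.61-fold, the Wnt and agrin receptor gene Lrp4 at least 2.39-fold, Pdgfrb, the receptor by which fibroblasts answer PDGF, at least 2.27-fold, the carboxylesterase gene Ces1d at least 2.16-fold and the receptor gene Notch1 at least 1.98-fold. Clec2d, Cryz, Arhgef19 and Gata6 followed at 1.84-fold to 1.94-fold or more. Transfectant only was detected and higher than miR-141 in each of these 10 genes, with 6.80 for Pdgfrb and 7.03 for Aldh1a3.

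Matrix genes were lower more often than higher, beside 4.82% of all genes lower and 4.31% higher. Of 12 detected collagen chains 4 were lower, 0 were higher and the median was -0.36. Against transfectant only the median of the 12 chains was -0.20. The lower chains were Col6a2 at -0.74, Col16a1 at -0.70, Col5a1 at -0.69 and Col4a5 at -0.64, while Col6a1 at -0.57 did not reach 1.5-fold. The main fibrillar chain Col1a1 was at -0.53, with 11.46 with miR-141, against 11.99 in control miRNA and 11.59 in transfectant only. Col5a2 at 0.27 and Col7a1 at 0.34 lay above 0. Among 24 collagen folding and crosslinking genes 6 were lower and 1 was higher, with a median of -0.35. The lysyl oxidase gene Loxl2, which crosslinks collagen, was at 6.63 with miR-141, against 7.80 in control miRNA and 7.37 in transfectant only, and its relative Loxl4 was higher at 8.91 with miR-141, against 8.14 in control miRNA and 8.02 in transfectant only. Serpinh1, the collagen chaperone and one of the brightest genes that passed, was at 12.29 with miR-141, against 13.03 in control miRNA and 13.08 in transfectant only. The endoplasmic reticulum prolyl isomerase genes Fkbp7 and Fkbp14 were at -0.98 and -0.67, the collagen-modifying complex gene P3h4 at -0.90 and the prolyl hydroxylase gene P4ha1 at -0.66.

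Of 29 matrix glycoproteins and proteoglycans 8 were lower and 1 was higher, against 4.82% and 4.31% of all genes, and the median was -0.17. Spon2, a secreted protein that binds integrins, was at 7.84 with miR-141 (6.35 with miR-200c), against 9.61 in control miRNA and 9.86 in transfectant only. The matricellular genes Ccn5 and Ccn4 were at -1.65 and -1.20, the elastic fibre gene Emilin1 at -1.07, Matn2 at -0.83 and Olfml2b at -0.65, and Olfml3 was at least 1.74-fold lower. The TGF-beta induced gene Tgfbi was also among the lower ones. The proteoglycan gene Dcn was the higher one, at 7.21 with miR-141, against 6.47 in control miRNA, but it was at 7.25 in transfectant only. Of 17 matrix proteases and inhibitors 5 were lower and 1 was higher. Mmp14, a membrane-bound collagenase, was at -0.88, Adamts4 at -0.69, Timp1, a broad inhibitor of these proteases, at -0.63 and Mmp13 at -0.61, Mmp11 was at least 1.48-fold lower, and the plasminogen activator gene Plau was higher at 1.02.

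In the TGF-beta and BMP list 4 of 27 were lower, against 4.82% of all genes, 0 were higher and the median was 0.01. The ligand genes Tgfb1 and Tgfb2 were at -0.91 and -0.79, the co-receptor gene Tgfbr3 at 7.43 with miR-141 (9.26 with miR-200c), against 8.72 in control miRNA, and Vasn, whose product traps the ligand, at 8.13 with miR-141 (7.70 with miR-200c), against 9.57 in control miRNA. The receptor gene Tgfbr1 was at -0.54 and Tgfbr2 at 0.24, and Smad2, Smad3 and Smad4, which carry the signal to the nucleus, lay at 0.32, -0.26 and 0.01. Of 28 growth factors and receptors 6 were lower and 2 higher, against 4.82% and 4.31% of all genes, and the median was -0.17. Nrp1, a co-receptor of VEGF and semaphorins, was at -0.98 with both other detected probes in the same direction, the IGF-binding protein genes Igfbp2 and Igfbp5 were both at -0.82, the ephrin gene Efnb1 was at -0.64 and the collagen receptor gene Ddr1 at -0.61. Ptn, which encodes pleiotrophin, was higher at 8.97 with miR-141, against 7.91 in control miRNA and 8.53 in transfectant only. Efnb2 was at 0.63, but its level of 6.37 with miR-141 was matched by 6.39 in transfectant only.

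Inflammatory genes were among the lists with more higher than lower members. Of 22 chemokine, cytokine and NF-kB genes 6 were higher and 2 lower, against 4.31% and 4.82% of all genes. Besides Tnfaip3 and Cxcl16 the higher ones were the NF-kB inhibitor genes Nfkbib at 0.77 and Nfkbia at 0.60, and Il24 and Icam1. The cytokine gene Il24 was at least 1.60-fold higher and the adhesion receptor gene Icam1 at least 1.09-fold. Both were below detection in control miRNA and entered only through the miR-141 array. Against transfectant only Nfkbib, at 0.40, Nfkbia, at 0.25, and Icam1 did not reach 1.5-fold. Ccl7, a monocyte chemokine, was lower at -0.72, with Cxcl12 described above. The list median was 0.05.

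Stress response genes were mostly near 0, apart from a few. Of 26 NRF2 and antioxidant genes 5 were lower and 0 were higher, against 4.82% and 4.31% of all genes, with a median of -0.08. After Hmox1 these were the glutathione transferase gene Gsta4 at -1.06, Aldh3a1, which oxidizes aldehydes, at -0.92, the epoxide hydrolase gene Ephx1 at -0.76, and the biliverdin reductase gene Blvrb, at least 1.24-fold lower. Gsta4 was at 8.52 with miR-141, against 9.58 in control miRNA and 8.72 in transfectant only, so the control miRNA array lay apart. In the list of p38, JNK and ERK pathway kinases 3 of 21 were lower and 1 was higher. With Mapk14 the lower ones were Map3k3, an upstream activator, at 6.35 with miR-141 (8.16 with miR-200c), against 7.58 in control miRNA, and the RAF family kinase gene Araf at -0.77. The JNK gene Mapk9 was higher at 0.64.

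Among 26 immediate early genes 4 were lower and 2 higher, against 4.82% and 4.31% of all genes. The zinc finger factor genes Egr3, Egr2 and Klf4 were at -1.06, -0.70 and -0.61, and the phosphatase gene Dusp2 was at least 1.41-fold lower. The MAP kinase phosphatase gene Dusp1 was higher at 0.60. Fos was at 0.76 against control miRNA, with 7.67 with miR-141, 6.91 in control miRNA and 7.89 in transfectant only, so its direction depends on the control. In the unfolded protein and amino acid stress list 5 of 27 were lower, 0 were higher and the median was -0.27. With Kdelr3 these were Chac1, which breaks down glutathione, at -0.92, the transcription factor gene Xbp1 at -0.83, Vldlr at -0.79 and Atf5 at -0.59. Of 13 p53 targets 3 were lower and 1 higher. The cell cycle inhibitor gene Cdkn1a was at least 1.68-fold lower than in control miRNA and at least 1.12-fold lower than in transfectant only. Phlda3 was at -0.87, the death receptor gene Fas at -0.75 and the kinase gene Plk2 at 0.74. None of 8 heat shock genes passed 1.5-fold, and their differences lay between -0.36 and 0.37.

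Mitosis genes lay slightly high against control miRNA. Of 26 detected G2/M genes 4 were higher, against 4.31% of all genes, and 0 were lower. In this list 21 had a positive difference and the median was 0.33. Against transfectant only the median was 0.22 with miR-141 and -0.12 in control miRNA. Aurka, Ect2 and Depdc1a did not reach 1.5-fold against transfectant only. Aurka, a spindle pole kinase, was at 10.48 with miR-141, against 9.88 in control miRNA, and Depdc1b was at 8.77 with miR-141, against 8.14 in control miRNA and 8.18 in transfectant only. Ect2 and Depdc1a were below detection in control miRNA and at least 1.43-fold and 1.48-fold higher. Anln was at 0.52, Kif4 at 0.48, Cenpe at 0.37 and Prc1 at 0.34, all within 1.5-fold, and Cdk1 at 0.04, Top2a at -0.02 and Cdc20 at -0.07 lay near 0. DNA replication genes had a median of 0.00 over 31. Of these 2 were lower, the helicase subunit gene Mcm7 at -0.78 and Cdc25a, beside 4.82% of all genes, and 0 were higher.

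Further lists had single members with larger differences, beside 4.82% of all genes lower and 4.31% higher. Of 28 lysosomal genes 5 were lower and 2 higher, with a median of -0.21, and besides Ppt2 the enzyme genes Naglu at -0.77, Hexa at -0.67 and Lipa at -0.67 and the progranulin gene Grn at -0.69 were lower, while Ctsw and Ctsh, at least 1.05-fold, were higher. Of 9 genes of MHC class I presentation 3 were lower and 0 higher, namely Fcgrt, the non-classical H2-T23 at 5.58 with miR-141 against 6.88 in control miRNA, and Tapbpl at -0.63. Of 5 S100 calcium-binding protein genes the fibroblast-associated S100a4 at -0.93 and S100a13 at -0.90 were lower. Of 44 actin and adhesion genes Ezr, which links actin to the membrane of microvilli, was higher at 10.82 with miR-141 (11.01 with miR-200c), against 9.90 in control miRNA and 10.40 in transfectant only, and Tpm2 was higher at 0.66, although its other detected probe had the opposite sign. Rhob at -0.69 and the collagen-binding integrin gene Itga11, at least 1.83-fold, were lower. Of 28 vesicle fusion and SNARE genes Stxbp2 and Stx3 were higher and 0 lower, and of 12 genes of aldehyde and retinoid metabolism Aldh1a3 and Aldh3a1 were lower and 0 higher. Among circadian genes Clock and Dbp at -0.65 were lower and Ciart at 0.66 was higher, of 14. Bst2, at least 1.71-fold lower, was the single one of 6 interferon-stimulated genes past 1.5-fold. Tnrc6b, a partner of Argonaute proteins in silencing, was at least 1.59-fold lower, and of the other 11 detected genes of miRNA processing none passed.

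Housekeeping lists stayed within the threshold. Of 21 ribosomal protein genes, 34 respiratory chain genes, 29 proteasome genes and 13 glycolysis genes 0 passed 1.5-fold in either direction, with medians of -0.09, -0.07, -0.03 and 0.12 and all differences between -0.41 and 0.47. Of ribosomal protein genes outside the list, picked after their values were seen, Rpl13a was lower at -0.60 and Rps15a, below detection with miR-141, was close to the detection limit at 5.34 in control miRNA. Among 23 genes of lipid synthesis only the sterol enzyme gene Nsdhl passed, at 0.61.

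The control arrays differed for a part of the named genes. Of the 163 that passed 1.5-fold against control miRNA, 36 kept their direction against transfectant only without reaching 1.5-fold, and 4 (Fbxw5, Dcn, Fos and Efnb2) changed direction. The lower genes among the 36 were the listed targets Cdc25a, Dek and Yap1, the matrix genes P4ha1, Mmp13, Mmp14 and Timp1, the lysosomal Grn, Hexa and Naglu, and Osr1, Cdkn1a, Phlda3, Gsta4, Blvrb, Dbp, Ddr1, Tapbpl, Tnrc6b, Pop4 and H2ac19. The higher ones were the mitosis genes Aurka, Ect2 and Depdc1a, the NF-kB genes Nfkbia, Nfkbib and Icam1, and Ciart, Dusp1, Ezr, Mapk9, Nsdhl, Ptn, Tpm2, Zfp14 and Zfpm2. The difference of P4ha1, for example, was -0.66 with control miRNA and -0.10 with transfectant only as the control, and that of Nfkbia 0.60 and 0.25.

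**Figure D4:**
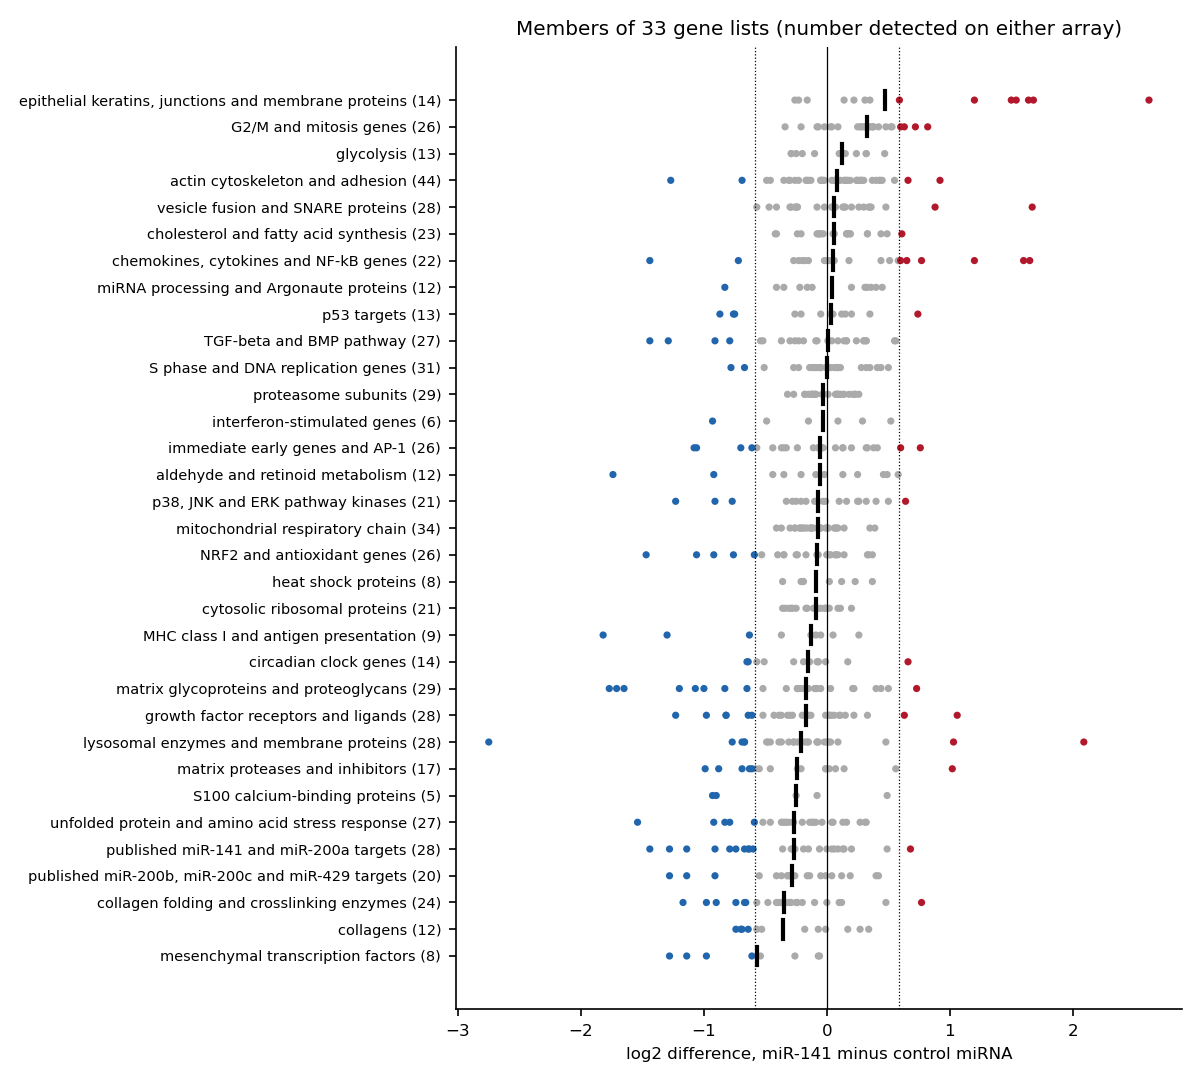
Each point is 1 gene detected with miR-141 or in control miRNA, placed by its log2 difference (horizontal, miR-141 minus control miRNA) in the row of its list, with the number of detected members in parentheses, red and blue where it passed 1.5-fold (dotted lines) upward and downward. Black bars mark the medians of the detected members, with mesenchymal transcription factors at -0.57, and in the epithelial row 5 of the 7 red points are genes detected with miR-141 and not in control miRNA, so its bar does not stand for the whole list.

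Promoters were searched for a short element because Zeb1 and Zeb2 were lower and some epithelial genes higher. ZEB proteins bind E-boxes of the form CAGGTG, or CACCTG on the other strand, and are known to sit at such elements in epithelial promoters, where Snail family factors bind too. RefSeq windows of build GRCm38.p6, from 250 bases before to 50 bases after each annotated start, were matched by symbol, and 6094 of the 7403 genes had at least 1 window. The element was present on either strand in 19.8% of these genes and in 20.2% of all 32851 windows in the table. It was present in 84 of 268 genes higher with miR-141 (31.3%) and in 40 of 279 lower genes (14.3%).

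The share followed the size of the difference. It was 49.1% (28 of 57) among genes at least 2-fold higher, 26.5% (56 of 211) between 1.5-fold and 2-fold higher, 15.1% (33 of 218) between 1.5-fold and 2-fold lower and 11.5% (7 of 61) among genes at least 2-fold lower. It was about the same at each level of brightness, with 31.1%, 31.4% and 31.9% of higher genes in the dim, middle and bright groups, against 20.5%, 20.3% and 18.8% of all genes there. Higher genes detected on both arrays had 28.5% and those detected with miR-141 alone 37.8%. Against transfectant only, which shares the miR-141 array, 28.0% of genes higher with miR-141 and 16.1% of lower genes had the element. For control miRNA against transfectant only the shares were 19.8% of the higher genes and 18.4% of the lower ones. The other E-box forms tried, each its own reverse complement, showed no such spread: CAGCTG was in 16.8% of higher, 16.5% of lower and 16.7% of all genes, and CACGTG in 11.9%, 13.3% and 12.6%. Over genes with a single window the shares of CAGGTG were 29.7% of higher, 9.38% of lower and 16.2% of all genes. The element was chosen after the differences had been seen, and the shares carry no test. Whether any of these elements is bound in these cells was not measured, and a part of Zeb1 or Zeb2 in the differences was not tested.

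Of the 7 epithelial genes that were higher, 6 had a window and 5 held the element, against 31.3% of all higher genes and 19.8% of all genes. Krt7, Krt8, Cldn4 and Map7 among them entered only through the miR-141 array. Epithelial genes that were not higher were not counted, so this is no share of the epithelial list. Their windows are printed with the element in capitals, on the strand of the gene, to show where it stands. The first base after the 250 upstream bases of each run is position 1, and the base before it is -1.
Lamb3, chr1:193301993-193302292, plus strand: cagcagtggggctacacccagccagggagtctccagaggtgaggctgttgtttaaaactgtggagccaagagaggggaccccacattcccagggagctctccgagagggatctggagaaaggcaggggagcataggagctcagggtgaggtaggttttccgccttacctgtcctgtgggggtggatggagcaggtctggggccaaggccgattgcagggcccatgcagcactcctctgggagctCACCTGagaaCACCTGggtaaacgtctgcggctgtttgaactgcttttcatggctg
Cldn4, chr5:134946885-134947184, minus strand: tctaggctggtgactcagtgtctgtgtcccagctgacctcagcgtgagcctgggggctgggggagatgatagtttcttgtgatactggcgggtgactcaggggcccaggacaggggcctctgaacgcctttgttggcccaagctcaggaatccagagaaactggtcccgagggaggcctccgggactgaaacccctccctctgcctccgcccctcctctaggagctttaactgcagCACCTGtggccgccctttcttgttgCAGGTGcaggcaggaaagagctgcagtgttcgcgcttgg
Krt8, chr15:102004293-102004592, minus strand: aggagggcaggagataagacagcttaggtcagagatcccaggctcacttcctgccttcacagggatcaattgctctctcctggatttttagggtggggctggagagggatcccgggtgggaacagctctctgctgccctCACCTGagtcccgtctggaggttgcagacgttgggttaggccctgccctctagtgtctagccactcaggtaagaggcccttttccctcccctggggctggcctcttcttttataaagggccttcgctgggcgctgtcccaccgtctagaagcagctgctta
Krt7, chr15:101412153-101412452, plus strand: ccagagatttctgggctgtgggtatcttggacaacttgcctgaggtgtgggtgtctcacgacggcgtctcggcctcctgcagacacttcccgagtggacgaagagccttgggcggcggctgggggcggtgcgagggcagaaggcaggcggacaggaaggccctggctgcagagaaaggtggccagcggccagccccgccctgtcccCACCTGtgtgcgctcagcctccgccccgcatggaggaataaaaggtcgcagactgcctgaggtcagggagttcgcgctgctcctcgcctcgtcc
Map7, chr10:20148670-20148969, plus strand: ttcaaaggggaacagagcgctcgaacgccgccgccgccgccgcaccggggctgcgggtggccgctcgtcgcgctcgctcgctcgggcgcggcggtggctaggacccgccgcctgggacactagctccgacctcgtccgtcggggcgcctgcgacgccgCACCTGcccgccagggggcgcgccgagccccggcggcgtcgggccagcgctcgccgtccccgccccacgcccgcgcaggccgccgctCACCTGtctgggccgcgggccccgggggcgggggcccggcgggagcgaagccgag
The first base of the element stood at -6 and 5 from the annotated start in Lamb3, at -14 and 12 in Cldn4, at -111 in Krt8, at -44 in Krt7 and at -92 and -5 in Map7. Lamb3 had a further window without it, and the window of Spint1 had none. Other genes with large upward differences that held it were Syne4, Tmem130, Stxbp2, Tnfaip3, Ell3, Lrba, Slpi and Dtnb. Of the 20 largest rises among genes detected on both arrays 16 had a window, and 9 of these held the element. Of the 12 largest bounds among genes detected with miR-141 alone 11 had a window, and 6 held it. Of the 20 largest drops among genes detected on both arrays 15 had a window, and 2 of these held the element.

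**Figure D5:**
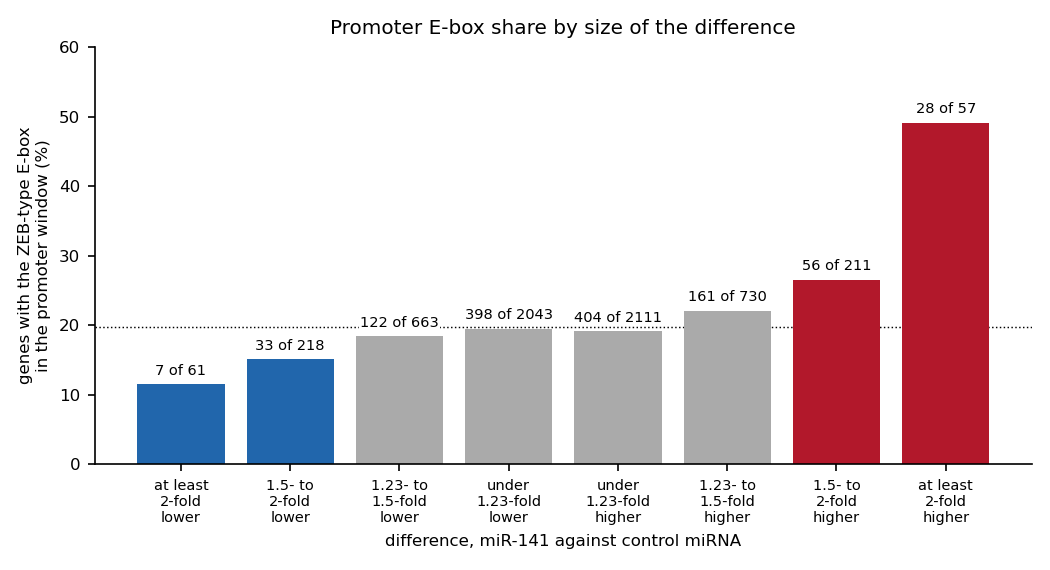
Percent of genes with the ZEB-type E-box in the promoter window (vertical, from 0) in 8 classes of the difference between miR-141 and control miRNA (horizontal), with the number of genes above each bar and a dotted line at the 19.8% of all genes with a window. The bars run from 11.5% in genes at least 2-fold lower to 49.1% in genes at least 2-fold higher.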

How the data were processed

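Each group had 1 array. The deposited table held average bead signal intensity per probe on a linear scale, not scaled between arrays, per the file headers, and a detection p-value per probe. GenomeStudio is named in the submitters' processing notes, without settings. The authors' processed intensity values, in a second deposited table, were a straight line of each array's own signals to within 0.0113 units, so linear and not centred; the choice of these lines is not stated.

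The 4 arrays were normalized together by neqc (limma 3.58.1 in R 4.3.3), which fits the background from detection p-values, adds an offset of 16, equalizes the quantiles and takes log2. Counts and figures were made in Python 3.11.15 with pandas 2.3.3, numpy 2.4.6 and matplotlib 3.10.9. Quantile normalization removes a shift shared by most genes, and the offset compresses differences of dim genes. Of 46632 probes 29976 had 1 gene symbol, 10 several and 16646 none, in the platform annotation. Entrez identifiers matched 29921 of these to the GRCm38.p6 RefSeq table.

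With 1 array per group no test was run. A fold is "at least" where the dimmer array was below detection, and is then taken against that array's lowest detected level, or the probe's own level if brighter (5.36 with miR-141, 5.33 in control miRNA, log2). Named genes were the 20 largest differences each way among genes detected on both arrays, the 12 largest bounds each way, Zeb1, Zeb2, Mapk14, Keap1, Cdh1, Vim, Fn1 and members of 33 gene lists. The members, lists and marker sets were chosen with earlier results of these data known. The promoter search was chosen after the differences had been seen. The alternatives tried are in the closing section.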

Additional observations from a re-analysis of the deposited data

How the results depend on the processing

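No paired analysis was possible because each group had 1 array and the labels give no replicate numbers; for the same reason no array could be left out of a group. The counts of 319 higher and 357 lower genes were 134 and 171 without background correction, 139 and 175 with the authors' processed values, 153 and 190 with an offset of 50, 72 and 84 at 2-fold, and 170 and 227 when 1.5-fold was required against both controls. The higher count was 219 when detection on both arrays was required, and the lower count 518 against transfectant only, with 428 higher. Of the genes found without background correction all 134 and 171 were among the 319 and 357, and of those with the authors' values 139 and 168 were. The share of higher among passing genes lay between 42.8% and 48.0% under all 12 alternatives, against 47.2%. With median scaling, normalization of the 2 arrays alone, a detection p-value under 0.05, the mean over probes, or undetected values at their bound, the counts stayed within 1.5 times.

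Of 163 named genes past 1.5-fold, the direction turned for 4, each against transfectant only: Fbxw5 to 0.11, Dcn to -0.04, Fos to -0.21 and Efnb2 to -0.02. Against transfectant only 36 others were no longer past 1.5-fold, and this number was 51 with the authors' values, 49 without background correction, 41 with an offset of 50 and at most 9 under the others, while detection on both arrays left 122 of the 163 in. Medians of the 33 lists kept their sign in 26 against transfectant only, 29 with the authors' values and 30 with median scaling, and in 31 to 33 under the other alternatives. For S100 genes the median of -0.25 was -0.58 with the authors' values and with median scaling. Signal over background limits the dim genes, whose folds depend most on background correction and offset.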

Other observations

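Named probes are not all of the array. Of 16646 probes without a gene symbol, 2549 were detected with miR-141 or in control miRNA, and of these 132 were 1.5-fold higher and 97 lower with miR-141. They are not named here.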
